A study of Mus musculus with 4 samples.

Results

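The keratin-associated proteins, encoded by the Krtap genes, form the matrix between the keratin filaments of hair. The genes described here are all those whose mouse symbol starts with Krtap after Ensembl identifiers were matched to GENCODE vM21, 55 of the 39179 genes counted. GENCODE vM21 holds 58 such symbols, and Krtap10-10, Krtap28-10 and Krtap28-13 were not analysed here. By family number, 22 were placed in the high-sulfur group, 17 in the ultra-high-sulfur group and 16 in the high-glycine-tyrosine group. The genes lie in clusters, with 25 on chromosome 16, 23 on chromosome 11, 5 on chromosome 7 and 2 on chromosome 10. A filter on low counts kept 54 of the 55, and Krtap13, with 2 counts in WT 2 and 0 in the other libraries, was not tested.

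The study sequenced RNA from mouse skin in 4 libraries and compared wild-type (WT) skin with lesional skin of Itch knockout (KO) mice. WT 1 and WT 2 carried the wild-type genotype, KO 1 and KO 2 were Itch-/-, and all 4 were on the C57BL/6 background. Every sample, WT included, is labelled with an inflammation phenotype, and the labels give no age, sex, body site or hair cycle stage, nor the kind of Itch allele. Separate animals are not named for the libraries, and a p-value here therefore reflects only how these libraries vary.

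Hair is made by follicles that pass through growth, regression and rest. In a growing follicle, cells of the hair cortex and cuticle first make hard keratins and then the keratin-associated proteins, whose many cysteines crosslink the filaments. The high-glycine-tyrosine proteins belong to the cortex, while some ultra-high-sulfur families are known from the cuticle. The inner root sheath, a mould around the growing shaft, has its own keratins and trichohyalin and little keratin-associated protein.

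Reads assigned to genes numbered 15144957 to 16008351 per library. Itch, a ubiquitin ligase gene, had 1450 and 1634 counts in WT 1 and WT 2 and 185 and 184 in KO 1 and KO 2. The log2 fold change of Itch was -3.09 (SE 0.16), with an edgeR quasi-likelihood adjusted p of 0.0509. Xist, expressed from the inactive X chromosome of females, stood at 1055 and 631 CPM (counts scaled to library size) in WT 1 and WT 2 and at 0.947 and 0.892 CPM in KO 1 and KO 2, and all 4 Y-linked genes listed were higher in both KO libraries, so sex and genotype cannot be told apart in what follows. WT 1 also stood apart from the other libraries in its muscle and follicle genes, as described with the Krtap values.

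The promoters of these genes share short sequence features that the choice of members did not use. RefSeq promoter sequences on GRCm38.p6 were matched for 50 of the 55 members, and the 250 bases before each start were searched on both strands. The TATA box motif TATAAA was present in 40 of 50 (80%), against 12.4% of all 32851 promoters in the table. On the gene's own strand with the first base at -40 to -20, where a TATA box usually lies, it was present in 30 of 50 (60%) against 1.99% of all. The longer form TATATAA, which overlaps TATAAA where another A follows, was present in 18 of 50 (36%) against 3.04% of all. Among the groups TATATAA was found in 12 of 20 high-sulfur, 6 of 14 high-glycine-tyrosine and 0 of 16 ultra-high-sulfur promoters. TATAAA was found in 16, 10 and 14 of them in the same order, so most ultra-high-sulfur promoters held the shorter form. CTTTGAA, the core recognised by LEF1, a Wnt pathway factor of the hair precortex, was present in 7 of 50 (14%) against 4.46% of all. The extended motif CTTTGAAGA, known from hair keratin promoters and containing the CTTTGAA core, was present in 3 of 50 (6%) against 0.414% of all, namely in Krtap14, Krtap16-3 and Krtap24-1. A match describes the letters only and is not evidence of binding.

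5 promoters are shown, 250 bases each and 5′ to 3′ on the gene's strand, because the results turn on these genes: Krtap8-1 had the highest level of a high-glycine-tyrosine member and Krtap11-1 that of a high-sulfur member, Krtap14 holds the extended motif, and Krtap3-2 and Krtap3-3 are near-identical copies that parted in WT 1. Capitals mark matches to TATAAA or TATATAA and to the core CTTTGAA or its extension CTTTGAAGA.
Krtap8-1 (chr16:89487953-89488202, minus strand): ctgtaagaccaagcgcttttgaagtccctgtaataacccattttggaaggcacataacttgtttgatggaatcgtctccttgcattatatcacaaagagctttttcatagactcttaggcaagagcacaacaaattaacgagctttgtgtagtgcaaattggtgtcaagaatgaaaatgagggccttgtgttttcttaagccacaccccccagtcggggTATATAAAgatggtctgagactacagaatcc
Krtap11-1 (chr16:89571184-89571433, minus strand): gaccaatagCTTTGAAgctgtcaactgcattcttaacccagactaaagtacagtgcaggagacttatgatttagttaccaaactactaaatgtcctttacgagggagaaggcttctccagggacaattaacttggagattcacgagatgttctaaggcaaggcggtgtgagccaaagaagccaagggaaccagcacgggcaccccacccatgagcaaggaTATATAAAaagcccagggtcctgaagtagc
Krtap14 (chr16:88826146-88826395, minus strand): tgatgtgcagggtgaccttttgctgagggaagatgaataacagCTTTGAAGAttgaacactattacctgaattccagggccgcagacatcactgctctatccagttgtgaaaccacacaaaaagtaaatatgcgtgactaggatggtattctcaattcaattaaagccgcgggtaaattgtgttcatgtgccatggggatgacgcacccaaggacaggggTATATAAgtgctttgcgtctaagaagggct
Krtap3-2 (chr11:99556854-99557103, minus strand): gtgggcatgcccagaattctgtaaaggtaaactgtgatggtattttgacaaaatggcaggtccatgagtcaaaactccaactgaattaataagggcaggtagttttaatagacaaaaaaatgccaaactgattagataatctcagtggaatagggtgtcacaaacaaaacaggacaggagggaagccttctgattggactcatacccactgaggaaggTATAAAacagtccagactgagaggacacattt
Krtap3-3 (chr11:99550864-99551113, minus strand): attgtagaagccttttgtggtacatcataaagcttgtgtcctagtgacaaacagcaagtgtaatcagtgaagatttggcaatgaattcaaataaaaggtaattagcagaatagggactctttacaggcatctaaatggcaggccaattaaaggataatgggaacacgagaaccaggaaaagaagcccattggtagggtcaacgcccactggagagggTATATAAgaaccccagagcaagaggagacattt
Aligned end to end with gaps allowed, the Krtap3-2 and Krtap3-3 upstream regions matched at 165 bases, which is 66% of the 250-base length. No other pair was aligned for comparison.

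Over all members, Krtap RNA was nearly absent from WT 1 and plentiful in the other 3 libraries. Summed counts of the 55 members were 574 in WT 1 (95% exact Poisson interval 528 to 623, counting error only), 36109 in WT 2, 95713 in KO 1 and 57182 in KO 2. Summed levels were 38.3, 2279, 6045 and 3643 CPM in the same order. KO 1 was highest and WT 1 lowest. In bulk skin, fewer cells making hair shaft and less RNA per cell cannot be told apart.

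**Figure D1:**
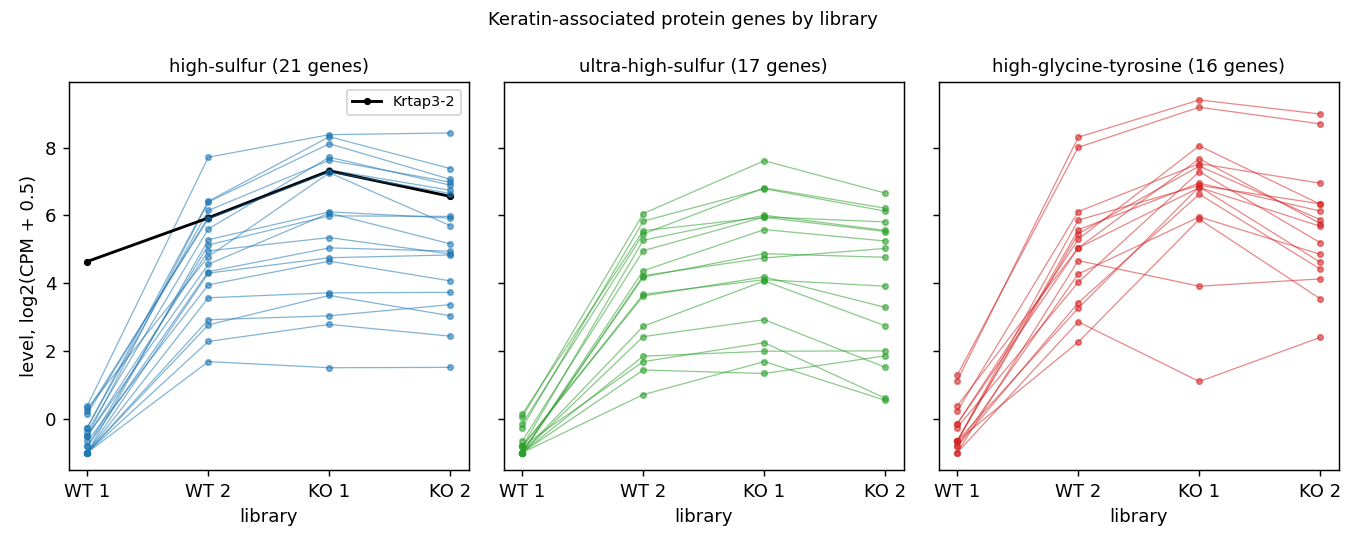
Level of each of the 54 tested Krtap genes in each library, as log2(CPM + 0.5), with points coloured by group and lines joining the values of the same gene. WT 1 holds the lowest value of all 54, with Krtap3-2 at 24.4 CPM standing above the rest.

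WT 1 was the lowest library for 54 of the 54 tested members. In it, 17 members had 0 counts, 18 had 1 to 3 and 19 had more than 3. WT 2 was above WT 1 by 4-fold or more on the log2(CPM + 0.5) scale for 52 of 54, against 2.41% of all 16651 tested genes, the exceptions being Krtap3-2 and Krtap5-1. The median log2 difference of WT 2 over WT 1 was 5.21 over the members and -0.059 over all tested genes. The pseudocount of 0.5 CPM limits this difference for members with few counts, which was 4.33 with a pseudocount of 1 CPM.

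Against that spread, the KO and WT groups could not be separated. By edgeR's quasi-likelihood test with Benjamini-Hochberg adjustment, 0 of 54 members passed 0.05 in either direction, against 0.00601% of all tested genes higher and 0.0% lower in KO. At an unadjusted p under 0.05 there was 1 member, Krtap3-2, against 12.0% of all tested genes higher and 10.9% lower. DESeq2 called 1 member higher, again Krtap3-2, against 7.63% of its genes higher and 5.58% lower. Limma-voom called 0, with 2 members at an unadjusted p under 0.05, against 12.5% of genes higher and 8.98% lower. The median standard error of a member's log2 fold change was 1.76, against 0.28 over all tested genes. The fitted log2 fold change had a median of 1.82 over the members (range -0.077 to 3.97) and 0.0084 over all tested genes, and the adjusted p of members ranged from 0.199 to 0.983.

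The ordering of the libraries was nonetheless alike across members. For 44 of 54 members the KO libraries both exceeded the WT libraries, against 31.2% of all tested genes, and both were below them for 0, against 30.0%. WT 1 was the lowest library for all 54, so the count below could only be 0 and the count above was decided by WT 2. The 44 comprised 19 of 21 high-sulfur, 11 of 17 ultra-high-sulfur and 14 of 16 high-glycine-tyrosine members. The groups overlapped for the other 10, Krtap16-1, Krtap29-1, Krtap17-1, Krtap4-13, Krtap5-1, Krtap5-2, Krtap5-3, Krtap5-5, Krtap6-3 and Krtap20-2. Among the 44 some gaps were small, as for Krtap5-4 with 97 counts in both WT 2 and KO 2. With RLE scaling or library totals only, the 44 became 43. The exact order WT 1, WT 2, KO 2, KO 1 from low to high was found for 38 of 54, against 8.31% of all tested genes. The members share the 4 libraries, so they are not independent observations of that order.

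Because WT 1 was so low, the KO libraries were also set beside WT 2 alone. Both KO libraries were above WT 2 for the same 44 of 54 members, against 42.1% of all tested genes, and below it for 3, against 39.3%. The median log2 difference from WT 2 was 1.01 for KO 1 and 0.60 for KO 2. In an edgeR fit without WT 1, in which the lone WT library is assumed to vary like the KO libraries, 3 members passed the adjusted threshold and all were higher in KO, against 5.52% of genes higher and 2.17% lower. These were Krtap4-16, Krtap26-1 and Krtap4-6, with log2 fold changes of 0.93, 0.86 and 1.07 and adjusted p of 0.0360, 0.0374 and 0.0475. Without WT 2 instead, 45 members passed as higher, against 15.3% of genes, so the number of calls turned on which WT library was used.

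**Figure D2:**
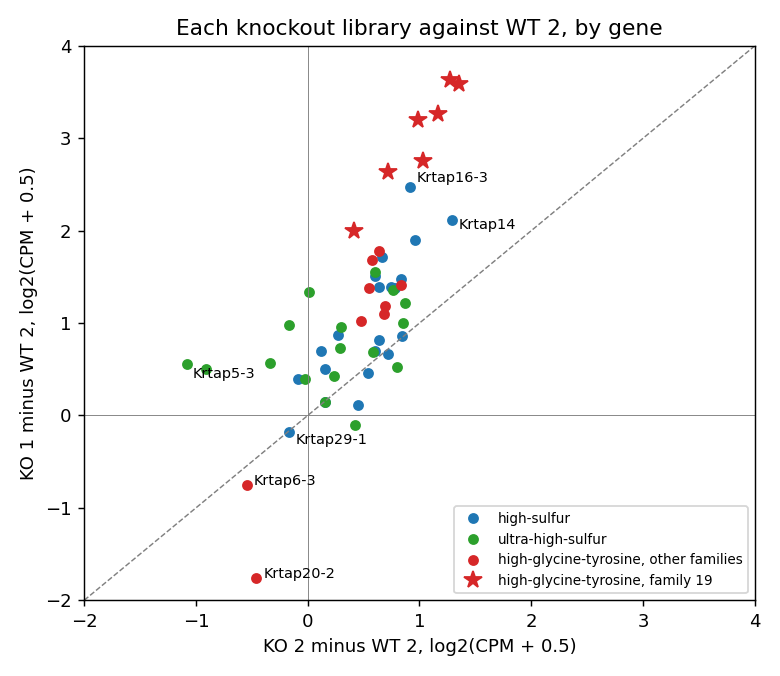
Difference from WT 2 of KO 2 (horizontal) and of KO 1 (vertical) for each tested member on the log2(CPM + 0.5) scale, coloured by group, with family 19 as stars and a dashed line of equality. Most points lie above 0 for both, with a median of 1.01 for KO 1 and 0.60 for KO 2, and family 19 lies above the line.

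The high-sulfur proteins are as a class cysteine-rich crosslinking proteins, and their coding sequences gave a median cysteine content of 20.2%. The range was wide, from 4% in Krtap15 to 30.6% in Krtap1-3. Krtap11-1 had the highest mean level of the group, at 0.800 and 209.6 CPM in WT 1 and WT 2 and 333 and 345 CPM in KO 1 and KO 2. Its KO values were nearly equal and above WT 2, with a log2 fold change of 1.69 (SE 2.01) and an adjusted p of 0.640. Krtap15 measured 0.333 and 85.0 CPM in WT skin and 319 and 166 CPM in KO skin, and its exons overlap 4930553J12Rik on the same strand, so reads of the pair may be mixed. Krtap1-5 measured 0.200 and 83.6 CPM in WT skin and 276 and 133 CPM in KO skin. Both followed the common order, with KO 1 well above KO 2. Krtap3-1 measured 0.333 and 70.3 CPM in WT skin and 197 and 126 CPM in KO skin. Krtap14, whose promoter carries the extended motif shown above, measured 0.267 and 48.0 CPM in WT skin and 209.6 and 118 CPM in KO skin, with a log2 fold change of 2.76 (SE 1.87) and an adjusted p of 0.417. Krtap26-1, named after its values were seen, measured 0.0667 and 34.4 CPM in WT skin and 62.8 and 62.1 CPM in KO skin, the closest KO agreement among the 3 members called without WT 1. Krtap29-1 was low throughout, at 0 and 2.71 CPM in WT skin and 2.34 and 2.36 CPM in KO skin, and its KO values lay below WT 2. Over the 21 tested members, levels ranged from 0 to 24.4 CPM in WT 1, 2.71 to 209.6 in WT 2, 2.34 to 333 in KO 1 and 2.36 to 345 in KO 2.

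Krtap3-2 was the exception in WT 1. It had 366 counts there, 954 in WT 2, 2505 in KO 1 and 1472 in KO 2, while its neighbour Krtap3-3 had 10, 935, 2455 and 1562. The genes had close values in 3 libraries and parted only in WT 1, where Krtap3-2 alone gave 366 of the 574 counts. Their translated coding sequences were 100% identical, and 28.9% of the 50-base windows of Krtap3-2 and 41.3% of those of Krtap3-3 occur in another gene's transcript. The counter for multiply aligned reads was 0 in every file, so how reads of such copies were assigned is not given in the sources used here. Krtap3-2 lies at GRCm38 chromosome 11, 99555823 to 99556853, and Krtap3-3 at 99550130 to 99550865, both on the minus strand. The log2 fold change of Krtap3-2 was 1.57 (SE 0.54), with an edgeR adjusted p of 0.199 and a DESeq2 adjusted p of 0.0361.

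The ultra-high-sulfur proteins are richer still in cysteine, with a median of 37.7%. Krtap9-3 led the group at 0.533 and 65.9 CPM in WT skin and 195 and 100.3 CPM in KO skin. In family 4, Krtap4-1 measured 0.333 and 56.3 CPM in WT skin and 109.8 and 69.2 CPM in KO skin, and Krtap4-7 at 0.400 and 43.2 CPM in WT skin and 112 and 73.5 CPM in KO skin. These 3 kept the common order, with narrower gaps between KO 2 and WT 2 than between KO 1 and WT 2. Krtap4-2 measured 0.0667 and 38.0 CPM in WT skin and 63.6 and 46.5 CPM in KO skin. Krtap4-16 measured 0.133 and 30.6 CPM in WT skin and 61.5 and 55.4 CPM in KO skin, and Krtap4-6, named after its values were seen, at 0 and 20.1 CPM in WT skin and 47.4 and 37.3 CPM in KO skin. Krtap17-1, a single-gene family, overlapped between the groups, at 0.60 and 46.3 CPM in WT skin and 60.9 and 45.5 CPM in KO skin. Family 5, known from the human hair cuticle, summed to 0.133 and 26.6 CPM in WT and 47.9 and 19.8 CPM in KO, so KO 2 lay below WT 2. Its 5 members had a median log2 difference of KO 2 over WT 2 of -0.34, and of KO 1 over KO 2 of 1.32, and they share sequence with other genes, with 54.3% of the windows of Krtap5-1 found in Gm4559. Krtap4-13, with 81.3% of its windows in Gm11554, was the member with the largest shared portion. Over the 17 members, levels ranged from 0 to 0.60 CPM in WT 1, 1.14 to 65.9 in WT 2, 2.02 to 195 in KO 1 and 0.956 to 100.3 in KO 2.

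The high-glycine-tyrosine proteins are small, with a median glycine and tyrosine content of 63.3%. Krtap8-1 had the highest level of all members, at 1.67 and 316 CPM in WT skin and 677 and 508 CPM in KO skin, with a log2 fold change of 1.90 (SE 1.99) and an adjusted p of 0.594. Per kilobase of exon it also ranked first, at 2.90, 550.1, 1180 and 885 CPM per kilobase in WT 1, WT 2, KO 1 and KO 2. Krtap7-1 followed at 1.93 and 257 CPM in WT skin and 584 and 415 CPM in KO skin. Krtap22-2 measured 0.667 and 68.6 CPM in WT skin and 184 and 123 CPM in KO skin. All 3 followed the common order without overlap between the groups.

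Family 19 was set apart, after its values were seen, by how far KO 1 exceeded KO 2. Krtap19-3 measured 0.400 and 38.8 CPM in WT skin and 265 and 79.8 CPM in KO skin. Krtap19-5 measured 0.800 and 32.4 CPM in WT skin and 203 and 53.6 CPM in KO skin. Krtap19-9b measured 0.133 and 43.5 CPM in WT skin and 175 and 58.0 CPM in KO skin. In each of these the excess of KO 1 over KO 2 was larger than that of KO 2 over WT 2. Krtap19-1 had the largest fitted change of any member, at 0.133 and 4.29 CPM in WT skin and 58.7 and 11.1 CPM in KO skin, a log2 fold change of 3.97 (SE 1.61) and an adjusted p of 0.245. Krtap19-4 measured 0.133 and 9.09 CPM in WT skin and 114 and 24.0 CPM in KO skin, with a log2 fold change of 3.90 (SE 1.73) and an adjusted p of 0.271. Krtap19-2 measured 0.333 and 15.8 CPM in WT skin and 156 and 36.1 CPM in KO skin, with a log2 fold change of 3.57 (SE 1.70) and an adjusted p of 0.292. Krtap19-9a, the remaining member, is annotated as a processed pseudogene with 166 exon bases. It measured 0.0667 and 10.2 CPM in WT skin and 98.1 and 20.8 CPM in KO skin. The 7 genes had a median log2 difference of KO 1 over KO 2 of 2.10 (1.58 to 2.35), against 0.54 (-1.30 to 1.14) for the other high-glycine-tyrosine members. Krtap16-3 is outside both sets by family number, yet its translated sequence is 81.6% identical to that of Krtap19-3. Its difference was 1.56, so the excess was not confined to family 19. Family 19 made up 27.7% of the summed Krtap level per kilobase in KO 1, against 9.50%, 11.0% and 12.7% in WT 1, WT 2 and KO 2. Division by its short exon gave Krtap19-9a 591 of the family's 2625 CPM per kilobase in KO 1. In plain CPM, family 19 summed to 2.00, 154, 1070 and 283 in WT 1, WT 2, KO 1 and KO 2. All members summed to 38.3, 2279, 6045 and 3643 CPM.

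A few high-glycine-tyrosine members went the other way. Krtap20-2 measured 0 and 6.75 CPM in WT skin and 1.64 and 4.78 CPM in KO skin, with KO 1 the lower KO library. Its log2 fold change was -0.077 (SE 1.81), with an adjusted p of 0.983. Krtap6-3 measured 0 and 24.9 CPM in WT skin and 14.5 and 16.9 CPM in KO skin, with a log2 fold change of 0.34 (SE 1.92) and an adjusted p of 0.929. Both had KO values below WT 2 while the other 22 tested genes of chromosome 16 had both KO values above it. Over the 16 members, levels ranged from 0 to 1.93 CPM in WT 1, 4.29 to 316 in WT 2, 1.64 to 677 in KO 1 and 4.78 to 508 in KO 2.

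The KO 1 excess was also looked at by position on chromosome 16, after the values were seen. KO 1 exceeded KO 2 by 2-fold or more for 15 of 54 members, against 2.21% of all tested genes, comprising 2 high-sulfur, 4 ultra-high-sulfur and 9 high-glycine-tyrosine members. Over the 11 neighbouring genes from Krtap13-1 to Krtap16-3, the median log2 difference of KO 1 over KO 2 was 1.73, against 0.41 over the other 13 tested genes of the chromosome, 0.34 on chromosome 11, 1.32 on chromosome 7 and 0.59 on chromosome 10. Of the 11, 7 belong to family 19, set apart above by this same difference, so the block median restates that choice and does not show an effect of position. Krtap13-1, Krtap14 and Krtap15, at the near edge of that block, had differences of 0.60, 0.83 and 0.94. Krtap21-1 and Krtap6-2, outside the block, had larger ones of 1.14 and 1.10. Krtap16-3, at the far edge, is classed high-sulfur by family number although its coding sequence is 59.3% glycine and tyrosine, and measured 0.733 and 27.0 CPM in WT skin and 152 and 51.3 CPM in KO skin. With 1 library on each side of this difference there is no replicate check of it.

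**Figure D3:**
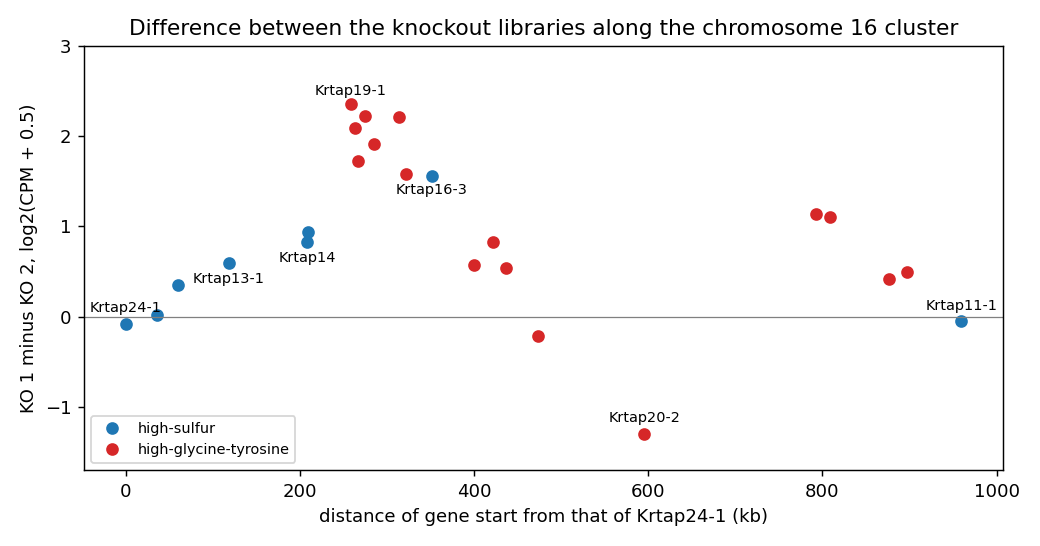
Log2 difference of KO 1 over KO 2 for the 24 tested Krtap genes on chromosome 16, by distance in kilobases from Krtap24-1. The values climb to 2.35 at Krtap19-1, stay high through Krtap16-3 and reach -1.30 at Krtap20-2. Beyond it, Krtap21-1 stands at 1.14 and Krtap6-2 at 1.10.

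The groups were compared within each library by their summed levels in CPM per kilobase. High-sulfur members summed to 29.5, 1031, 2692 and 1747 in WT 1, WT 2, KO 1 and KO 2. Ultra-high-sulfur members summed to 2.60, 415, 857 and 577. High-glycine-tyrosine members summed to 13.3, 1821, 5936 and 2967. In WT 2 and both KO libraries the high-glycine-tyrosine group was the largest, with 55.7%, 62.6% and 56.1% of the total, whereas in WT 1 it held 29.3% and the high-sulfur group 65.0%. The ratio of high-glycine-tyrosine to high-sulfur level was 0.451, 1.77, 2.20 and 1.70. Without Krtap3-2 it was 2.29, 1.87, 2.34 and 1.79, so the distinct ratio in WT 1 came from that gene. In plain CPM the lead was smaller. High-glycine-tyrosine members summed to 983, 2946 and 1580 CPM in WT 2, KO 1 and KO 2, and high-sulfur members to 916, 2324 and 1536. By the composition of their coding sequences, 5 members would change group, Krtap7-1 and Krtap9-3 to high-sulfur, Krtap1-3 and Krtap10-4 to ultra-high-sulfur and Krtap16-3 to high-glycine-tyrosine. Krtap7-1 alone held 414, 940 and 668 CPM per kilobase in WT 2, KO 1 and KO 2. Which group would then be largest was not computed. By family number and per kilobase, the log2 ratio in KO minus that in WT was 1.12 with all members and -0.016 without Krtap3-2. It was 0.95 with the composition groups. With 2 libraries against 2, an exact permutation test cannot give a p below 0.333.

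**Figure D4:**
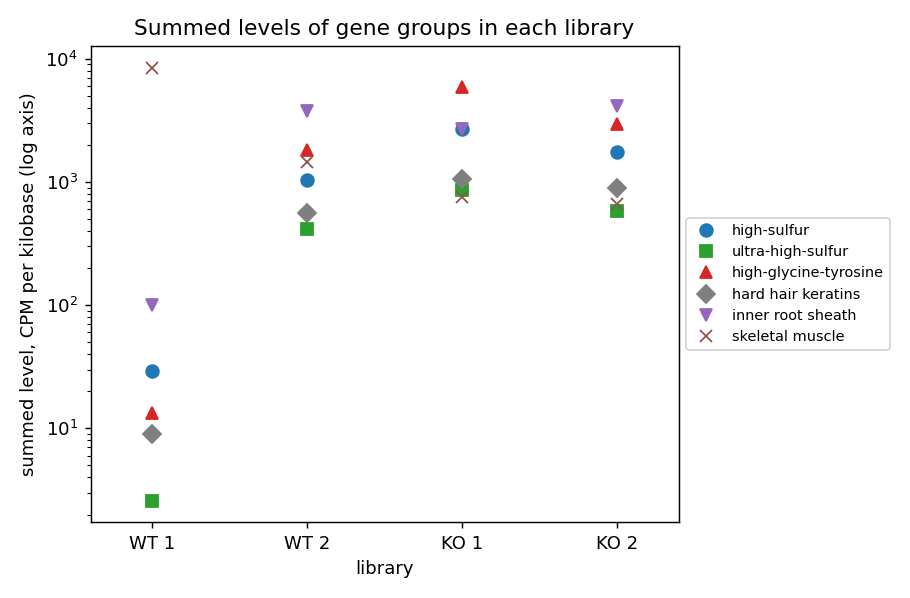
Summed level in CPM per kilobase of exon (vertical log axis) in each library, with 1 symbol for each Krtap group and for the hard hair keratin, inner root sheath and skeletal muscle lists. All 3 Krtap groups are lowest in WT 1, and the high-glycine-tyrosine group runs from 13.3 in WT 1 to 5936 in KO 1.

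The median log2 fold changes by group were 1.69 for high-sulfur, 1.65 for ultra-high-sulfur and 2.28 for high-glycine-tyrosine members. Without WT 1 they were 0.74, 0.65 and 1.29. Within the last group, family 19 had a median of 3.52 with all libraries. The difference between groups was not tested.

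Other genes of the follicle gave values beside these. The hard hair keratins, the filament partners of the Krtap proteins, summed to 8.95, 563, 1047 and 896 CPM per kilobase in WT 1, WT 2, KO 1 and KO 2. Both KO libraries were above both WT libraries for 10 of the 13 tested and below for 0, against 31.2% and 30.0% of all tested genes, with a median log2 fold change of 1.69. WT 1 was the lowest library for each of these keratins too, so the count below could only be 0. The inner root sheath genes summed to 100.2, 3785, 2691 and 4147, with KO 1 below WT 2 and KO 2. Of the 9, 1 had both KO libraries above both WT libraries and 1, Gata3, had both below, against the same 31.2% and 30.0%. Gata3 was also the highest of these genes in WT 1, at 329.7 CPM. With it left out of the inner root sheath sum after its values were seen, Krtap level over inner root sheath level was 2.62 in WT 1, 0.877 in WT 2, 1.29 in KO 2 and 3.57 in KO 1, while Krtap level over hard keratin level was 5.07, 5.80, 5.90 and 9.06 in the same order. The WT 1 ratios rested on Krtap3-2 and on the choice about Gata3. Without Krtap3-2 the first ratio was 1.25, 0.862, 1.27 and 3.51 and the second 2.43, 5.70, 5.80 and 8.91. With Gata3 kept and all members, the first was 0.453, 0.863, 1.28 and 3.52, with WT 1 the lowest. Hair shaft regulators, among them Hoxc13 and Lef1, summed to 138, 331, 220.4 and 319.8, and 1 of 12 had both KO libraries above both WT libraries and 3 below, against 31.2% and 30.0% of all tested genes. Other shaft and cuticle proteins summed to 20.7, 260.3, 234 and 291, and pigment genes to 9.81, 169, 55.7 and 132. WT 1 was thus the lowest library for every one of these follicle lists.

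Lists of other skin compartments and of resting follicles also differed between the libraries. Skeletal muscle genes summed to 8462 in WT 1, 1445 in WT 2, 755 in KO 1 and 661 in KO 2, and Tnnc2 was at or near 0 in all 4. Bulge and resting follicle genes summed to 1371, 838, 419 and 439.8, but Krt15 alone gave 1273, 748, 330 and 354 of these sums. Of the 8 genes, 0 had both KO libraries above both WT libraries and 4 below, against 31.2% and 30.0% of all tested genes. Fat genes summed to 2836, 1537, 1804 and 2098. Proliferation genes summed to 37.9, 83.7, 80.3 and 84.7, sebaceous gland genes to 866, 1265, 968 and 931, and interfollicular epidermis genes to 5515, 6016, 5234 and 6023. The epidermal sum varied least of the lists given here, but it joined opposite differences. Of its 6 tested genes, 1 had both KO libraries above both WT libraries and 3 below, against 31.2% and 30.0% of all tested genes. Krt14 measured 1617 and 1888 CPM in WT skin and 2979 and 3475 CPM in KO skin. Krt10 measured 4274 and 4128 CPM in WT skin and 2331 and 2756 CPM in KO skin, and Lor and Ivl were also lower in KO. The part of these lists in the Krtap values was not tested.

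Member levels were correlated across WT 2, KO 1 and KO 2. Over the 54 members, Pearson's r of log2(CPM + 0.5) was 0.884 between WT 2 and KO 1, 0.972 between WT 2 and KO 2 and 0.936 between KO 1 and KO 2. These are correlations across genes that share depth and gene length, and genes are not replicates.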

How the data were processed

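RNA of mouse skin was sequenced in 4 libraries, 2 per group, and groups and replicate numbers came from the labels. The values are unnormalized read counts per Ensembl gene that the authors deposited, 1 file per library. The submitters' processing notes name CASAVA 1.8.2, TopHat2, SAMtools 0.1.19, HTSeq 0.6.1 and the mm10 (GRCm38) build. For the annotation release, strand setting and filters the status is "not given in the sources used here", and genes that overlap or share sequence are uncertain. The 5 special counter lines stayed out of totals. Reads without a feature were 5.68% to 7.45% and ambiguous reads 4.48% to 4.70% of counted reads. Symbols came from GENCODE vM21, which held 37693 of 39179 identifiers.

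In R 4.3.3, edgeR 4.0.16 kept 16651 genes by filterByExpr (minimum count 10), scaled by TMM and compared groups with the two-sided quasi-likelihood F test (robust, group only), with Benjamini-Hochberg adjustment over all tested genes and a threshold of 0.05. CPM and CPM per kilobase of exon use the TMM-scaled totals. Differences between libraries use log2(CPM + 0.5). Each standard error (SE) was derived from the test, as the absolute log2 fold change divided by the square root of F. The biological coefficient of variation was 0.341. Replicate counts differed beyond sampling noise (chi-square divided by its degrees of freedom 109 for WT, 23.5 for KO). A floor of 3 counts is 0.187 to 0.198 CPM; floors and intervals cover counting error only. The procedure was tested on simulated data with the same spread for every gene and library. Those data held no gap like that between WT 1 and WT 2. Groups of members follow family numbers, and composition from translated GENCODE coding sequences gave the same group for 49 of 54. By composition, ultra-high-sulfur meant at least 30% cysteine and high-glycine-tyrosine at least 35% glycine and tyrosine. Every other sequence was called high-sulfur with no cysteine minimum, so agreement for that group arose partly by default. Alternatives were RLE and total scaling, other low-count filters, DESeq2 1.42.0, limma-voom (limma 3.58.1), a replicate block, leaving out each library, and another pseudocount. Leaving out Krtap3-2 or members sharing 20% of 50-base windows, and the copies of 90% identity and composition groups as computed from translated GENCODE coding sequences, were chosen after seeing the data.

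The named members are the 6 of highest mean CPM in each group, those with the 3 largest and 3 smallest fold changes and those with the 3 smallest p-values. Members with the widest spread between the libraries of WT or KO were added, among those with a mean CPM of 5 or more. Other members were named after the values were seen, which is said in place only for some. The members and lists were chosen with earlier results of these data known. The 12 marker lists were taken from general knowledge.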

Additional observations from a re-analysis of the deposited data

How the results depend on the processing

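The 2 replicate numbers per group are not said to pair animals, and the deviations of same-numbered libraries correlated at 0.173. With the replicate block, 0 genes and 0 members passed, and the members' median log2 fold change was 3.62. Over all genes, 1 gene passed, against 488 with no low-count filter, 2240 by DESeq2, 0 by limma-voom and 0 to 5320 when a library was left out. Members called higher numbered 1 by DESeq2 and 0 to 45 when a library was left out. Leaving out a library gave medians of 0.86 to 8.72 over the members, 0.74 to 8.89 for high-sulfur, 0.65 to 8.32 for ultra-high-sulfur and 1.29 to 8.68 for high-glycine-tyrosine members, the highest without WT 2. In that setting 17 members have 0 counts in the remaining WT library, so the fold depends on the prior count. By limma-voom the medians were 4.39 over the members, 4.34 for high-sulfur, 4.21 for ultra-high-sulfur and 4.88 for high-glycine-tyrosine members, and with the replicate block the group medians were 3.52, 2.81 and 4.01. Members with both KO libraries below WT numbered 0 to 3, the 3 without WT 1. The log2 ratio of high-glycine-tyrosine to high-sulfur level, KO minus WT, was 1.12, ranged from 0.13 to 2.10 when a library was left out, and was -0.088 without copies of 90% identity and -0.016 without Krtap3-2. The median of WT 2 over WT 1 was 4.33 with a pseudocount of 1. Krtap20-2 turned to 8.64 without WT 2 (-1.08 without WT 1), 0.47 without KO 1, 1.15 with the replicate block and 2.53 by limma-voom. Without WT 1, Krtap6-3 turned to -0.66 and Krtap29-1 to -0.21, and without WT 2 they stood at 10.9 and 8.19. Of the summary values recomputed, 92 were classed as unchanged, among them several of the shifts given above. A count was so classed when equal or near in size to the main one. A median or ratio was so classed when it kept its sign and moved by less than the standard deviation between replicate libraries. That deviation takes in the gap between WT 1 and WT 2 and was 2.72 for the members' median, so the class does not show stability. Apart from the effect of the pseudocount, of the removed genes and of the removed libraries, the cause of the shifts was not tested. The planned groups and identities from RefSeq proteins were not run and were replaced by translated GENCODE coding sequences. In WT 1, 53 of 54 members had under 100 counts, so differences among members there were not resolved.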
